A study of Mus musculus with 15 samples.

Results

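The genes of bile acid synthesis were followed in the livers of mice fed a diet that contains a bile acid. The members are the 10 genes Cyp7a1, Cyp8b1, Cyp7b1, Cyp27a1, Cyp39a1, Hsd3b7, Akr1d1, Amacr, Slc27a5 and Baat, taken by their symbols as the enzymes that carry cholesterol to conjugated bile acids, out of 18193 genes that had a probe set with 1 symbol. They have 16 of the 45101 probe sets on the array, of which 14 were tested. Male C57BL/6J mice of 8 weeks were fed for 12 weeks. The control group (NC, n = 5) received the standard chow, CRF-1. The CL group (n = 5) received a diet of 60% cocoa butter, 38.23% CRF-1 and 0.5% sodium cholate, with cholesterol at 1.25%, and the CL+CX group (n = 5) received the same diet with β-cryptoxanthin, a carotenoid of citrus fruit. Sodium cholate is itself a bile acid salt, so the CL and CL+CX mice were both fed a bile acid and the NC mice were not. The treatment text of the labels states 0.003% of β-cryptoxanthin in the feed, whereas the titles of the CL+CX samples state 0.005%. The study asked how β-cryptoxanthin alters gene expression in this diet model of steatohepatitis, and each mouse had 1 array of liver RNA.

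Bile acids are made from cholesterol in hepatocytes by a classic and an alternative pathway. The classic pathway is opened by Cyp7a1, its rate-limiting enzyme, and Cyp8b1 directs its product to cholic acid. The alternative pathway is opened by Cyp27a1 in mitochondria and continued by Cyp7b1. The sterol ring is then altered by Hsd3b7 and Akr1d1, the side chain is shortened in peroxisomes with the help of Amacr, and the finished acids are activated by Slc27a5 and joined to taurine or glycine by Baat. The pathway is known for feedback: bile acids activate the nuclear receptor Nr1h4 (FXR), which induces the repressor Nr0b2 (SHP) in the liver and the hormone Fgf15 in the ileum, and Fgf15 acts on hepatocytes through Fgfr4 and Klb.

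Promoter sequences of 4 of the 10 genes (Cyp8b1, Cyp27a1, Hsd3b7 and Akr1d1) were at hand in RefSeq for the build GRCm38.p6. The 250 bases before the start of Cyp8b1, the gene with the largest fall, and of Cyp27a1, which had no called change, are shown 5′ to 3′ on the strand of the gene. The Cyp8b1 bases lie at chr9:121916306-121916555 on the minus strand, and the Cyp27a1 bases at chr1:74713285-74713534 on the plus strand. Capitals mark a match to a motif that was searched.
Cyp8b1: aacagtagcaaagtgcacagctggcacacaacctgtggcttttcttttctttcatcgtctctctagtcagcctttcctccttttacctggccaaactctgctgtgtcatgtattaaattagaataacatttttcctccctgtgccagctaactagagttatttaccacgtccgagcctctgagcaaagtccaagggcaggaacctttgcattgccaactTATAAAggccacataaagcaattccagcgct
Cyp27a1: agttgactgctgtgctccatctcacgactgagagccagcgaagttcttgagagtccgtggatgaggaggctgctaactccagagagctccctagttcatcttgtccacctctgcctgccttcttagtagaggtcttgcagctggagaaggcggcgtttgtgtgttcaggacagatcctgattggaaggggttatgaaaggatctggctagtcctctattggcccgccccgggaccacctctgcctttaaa
Searching both strands for 8 motifs gave 1 match among the 4 promoters, TATAAA at bases 31 to 26 before the start of Cyp8b1. This TATA motif is in 12.4% of the 32851 promoter windows of the same length. The 7 motifs with no match were the LRH-1 site TCAAGGNCA (in 1.39% of all windows), a direct repeat bound by nuclear receptors, DR1 (0.0335%), the inverted repeat bound by FXR, IR1 (0.00609%), the D-box TTANGTAA (2.06%), the ROR and REV-ERB element (0.177%), the E-box CACGTG (6.02%) and the HNF1 site (0.00913%). The letters AGGTCA are shared by DR1, IR1 and the ROR and REV-ERB element. Only full matches to the searched letters were counted, and near matches were not searched for. The Cyp8b1 window holds a stretch that differs from the LRH-1 letters in 1 position and was not counted. The lack of a match therefore does not show that a promoter lacks a site for these factors. The TATA match is a description of the letters in these windows.

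Values are scaled signals, each array being brought to a common 75th percentile, and differences are in log2. The array medians lay between 9.48 and 16.7 before scaling. The hepatocyte marker Alb had scaled signals of 9585 to 12256 in NC, 6212 to 11573 in CL and 7012 to 8733 in CL+CX mice, and all 12 hepatocyte markers listed passed the filter on low signals. CL replicate 2 stood apart from its group, with a mean correlation over probe sets of 0.941 with the other CL arrays against 0.957 to 0.962 for those arrays. It had the highest signal of the 5 CL mice in 8 of the 10 enzymes, so the results that rest on the CL group are given with and without it. This choice rests in part on the enzymes' own values. Larger differences and smaller p-values without that mouse follow in part from the choice and give no separate support. CL against NC and CL+CX against CL share the CL mice, and CL against NC and CL+CX against NC share the NC mice, so the comparisons are not independent. The log2 ratio of the 3′ to the 5′ β-actin probe sets, a sign of RNA quality, was 0.84 to 1.05 in NC, 0.699 to 0.945 in CL and 0.949 to 1.17 in CL+CX mice, and so differed most between CL and CL+CX mice. All CL+CX mice lay above all CL mice, so RNA quality and β-cryptoxanthin cannot be told apart in that comparison. With the ratio as a covariate its standard errors grew, for Cyp7a1 from 0.46 to 0.74. A call lost there does not show which of the 2 a difference follows. In bulk liver RNA, fewer cells of a type and less RNA per cell cannot be told apart.

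**Figure D1:**
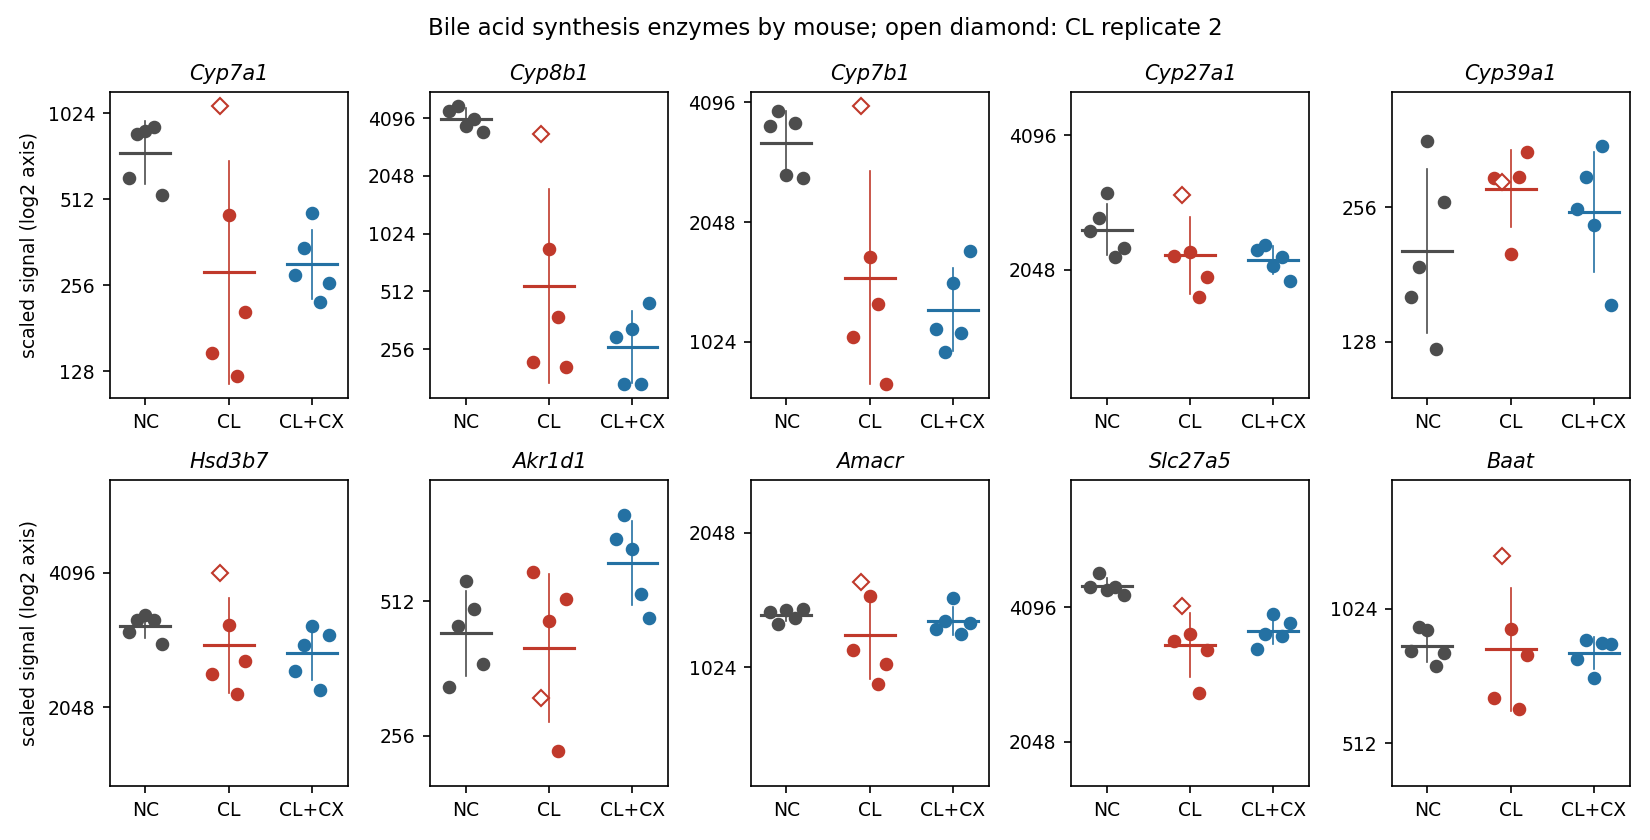
Scaled signal (log2 axis) of the 10 bile acid synthesis enzymes in each of the 15 mice, by diet. Points are mice, horizontal bars the mean of log2 signals and vertical lines ± 1 SD; the open diamond is CL replicate 2, which lies at 3382 for Cyp8b1 where the other CL mice lie between 206 and 846.

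In CL against NC, the question is which enzymes a diet with cholesterol and cholate alters. Cyp8b1, Cyp7b1 and Slc27a5 fell, Cyp7a1 was lower by 1.39 in log2 without passing the test, and the other 6 enzymes did not pass it. With limma and Benjamini-Hochberg adjustment over 20342 probe sets, 3 of the 10 genes were lower at an adjusted p under 0.05 and none was higher, where 6.76% of all 10521 genes tested were lower and 14% were called in either direction. Without CL replicate 2, 4 of 10 were lower, Cyp7a1 being added, where 13.2% of all genes were lower. The median difference of the 10 genes was -0.17, against -0.08 for all genes, and -0.29 against -0.11 without that mouse. All 10 genes were at or above the array median in all 15 mice. The median difference of all probe sets was -0.085 with the common 75th percentile, and moved to 0.23 with the signals as deposited and to 0.197 with each array centred on the mean of the hepatocyte markers. The 4 lower genes named above kept their direction under these scalings and under quantile normalization, and Cyp8b1 kept its call as well. With the β-actin ratio as a covariate, Cyp8b1 passed (-3.14, limma adjusted p = 0.0155) and Cyp7b1 and Slc27a5 did not (-1.28 and -0.46, limma adjusted p of 0.0642 and 0.0628).

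Cyp8b1 showed the largest difference of the 10 enzymes. Its scaled signals were 4479.8, 4742, 3719.8, 4058 and 3453 in the NC mice (replicates 1 to 5), 218, 3382, 846, 376 and 206 in the CL mice and 297, 169, 327, 168 and 447 in the CL+CX mice. CL replicate 2 was close under the lowest NC mouse, the other 4 CL mice were far below, and the groups NC and CL did not overlap, as held for 5.56% of genes in this direction. The mean log2 signal was 11.99 ± 0.19 (SD, n = 5) in NC and 9.09 ± 1.68 (SD, n = 5) in CL mice. Cyp8b1 was thus 7.44-fold lower in CL than in NC mice (log2 difference -2.90, SE 0.58, limma adjusted p = 0.00513). Without CL replicate 2 the difference was -3.55 (SE 0.38, limma adjusted p = 0.000121), or 11.7-fold.

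Cyp7a1, the gate of the classic pathway, was read by 2 probe sets that moved alike. The signals of the brighter set were 609, 867, 890.2, 919 and 531 in NC mice, 148, 1086, 451, 123 and 207 in CL mice and 279, 345, 459, 223 and 261 in CL+CX mice. CL replicate 2 had the highest Cyp7a1 of all 15 mice, while the other CL mice lay below the lowest NC mouse. With all mice the difference CL minus NC was -1.39 (SE 0.46, 95% interval -2.36 to -0.42, limma adjusted p = 0.0593), which missed the threshold, and the other probe set gave -1.35 (limma adjusted p = 0.0608). Without CL replicate 2, Cyp7a1 was 3.67-fold lower in CL than in NC mice (log2 difference -1.88, SE 0.33, limma adjusted p = 0.0022), and the groups did not overlap, as held for 12.5% of genes. In that mouse, Cyp7a1 stood at 146% of the NC mean, Cyp8b1 at 83.2% and Cyp7b1 at 124%, geometric means being used.

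In the alternative pathway, Cyp7b1 fell and Cyp27a1 did not pass the test. Cyp7b1, the hydroxylase of oxysterols, had signals of 3577, 3906, 2689, 3629.7 and 2639 in NC mice, 1052, 4015, 1670.1, 1274 and 802 in CL mice and 1099, 962, 1435, 1078 and 1736 in CL+CX mice. As for Cyp8b1, CL replicate 2 stood far above the other 4 CL mice, which lay below all NC mice. The difference CL minus NC was -1.13 (SE 0.33, limma adjusted p = 0.0349) and -1.27 with another probe set (limma adjusted p = 0.0336). Leaving out CL replicate 2 made it -1.49 (limma adjusted p = 0.000825). The call was lost when any of NC replicates 1 to 4 or CL replicates 1, 3, 4 and 5 was left out, with adjusted p of 0.0503 to 0.0857. Its remaining probe set was below the array median on all arrays and was not tested.

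Cyp27a1, the mitochondrial hydroxylase that opens the alternative pathway and also acts on the side chain, ranged from 2181 to 3040.4 in NC, 1781 to 3009.8 in CL and 1932 to 2323 in CL+CX mice. The groups overlapped, and the difference CL minus NC was -0.19 (95% interval -0.49 to 0.10, limma adjusted p = 0.407), turning to 0.12 with the signals as deposited and to 0.09 with arrays centred on hepatocyte markers. A further probe set of Cyp27a1 was below the array median on all arrays. Cyp39a1, which hydroxylates an oxysterol formed mainly in brain, ranged from 123 to 361 in NC and from 201 to 340.5 in CL mice. With the common 75th percentile it was the only member with a higher mean in CL than in NC mice, by 0.47 (SE 0.27, limma adjusted p = 0.288), with groups that overlapped.

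The enzymes of the sterol ring and the side chain did not pass the test. Hsd3b7, which oxidises and isomerises the ring, ranged from 2834 to 3289.7 in NC and from 2195 to 4091 in CL mice. Its difference was -0.14 (95% interval -0.47 to 0.19, limma adjusted p = 0.598) and above 0 with the deposited, the quantile-normalized and the hepatocyte-centred signals. Amacr, the racemase that lets side chains enter peroxisomal oxidation, ranged narrowly in NC mice, from 1281 to 1383, and more widely in CL mice, from 938 to 1584. Its difference was -0.15 (95% interval -0.44 to 0.14, limma adjusted p = 0.503), with the sign turned for the deposited and the hepatocyte-centred signals. Akr1d1, the reductase that sets the bend of the ring system, had signals of 329, 451, 567, 493 and 371 in NC mice, 596, 312, 463, 236 and 517 in CL mice and 705, 798, 671, 532 and 469 in CL+CX mice. NC and CL mice overlapped over nearly their whole range. The difference was -0.11 (SE 0.24, limma adjusted p = 0.807), or 0.21 with the deposited and 0.17 with the hepatocyte-centred signals, and a second probe set gave -0.42 (limma adjusted p = 0.193).

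Of the 2 enzymes of conjugation, Slc27a5 fell and Baat did not pass the test. Slc27a5, the ligase that activates bile acids for conjugation, had signals of 4552, 4876, 4463, 4552 and 4352 in NC mice, 3442, 4122, 3563, 2629 and 3279.6 in CL mice and 3303, 3573, 3949.8, 3537 and 3771 in CL+CX mice. All NC mice lay above all CL and all CL+CX mice, and the SD of the log2 signal was 0.061 in NC and 0.235 in CL mice. Slc27a5 was 1.35-fold lower in CL than in NC mice (log2 difference -0.43, SE 0.12, limma adjusted p = 0.0233). This fall was -0.51 without CL replicate 2 (limma adjusted p = 0.00502), and lost its call without NC replicate 2 (limma adjusted p = 0.0575). It depended on the scaling, being -0.12 with the deposited signals, -0.23 after quantile normalization and -0.15 with arrays centred on hepatocyte markers, none of which passed the test (limma adjusted p of 0.672, 0.113 and 0.359). Baat, which joins bile acids to taurine or glycine, ranged from 761 to 933 in NC and from 609.7 to 1347 in CL mice. Its difference was -0.03 (95% interval -0.40 to 0.34, limma adjusted p = 0.938), with a sign that turned in 3 scalings, and a second probe set gave -0.08.

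**Figure D2:**
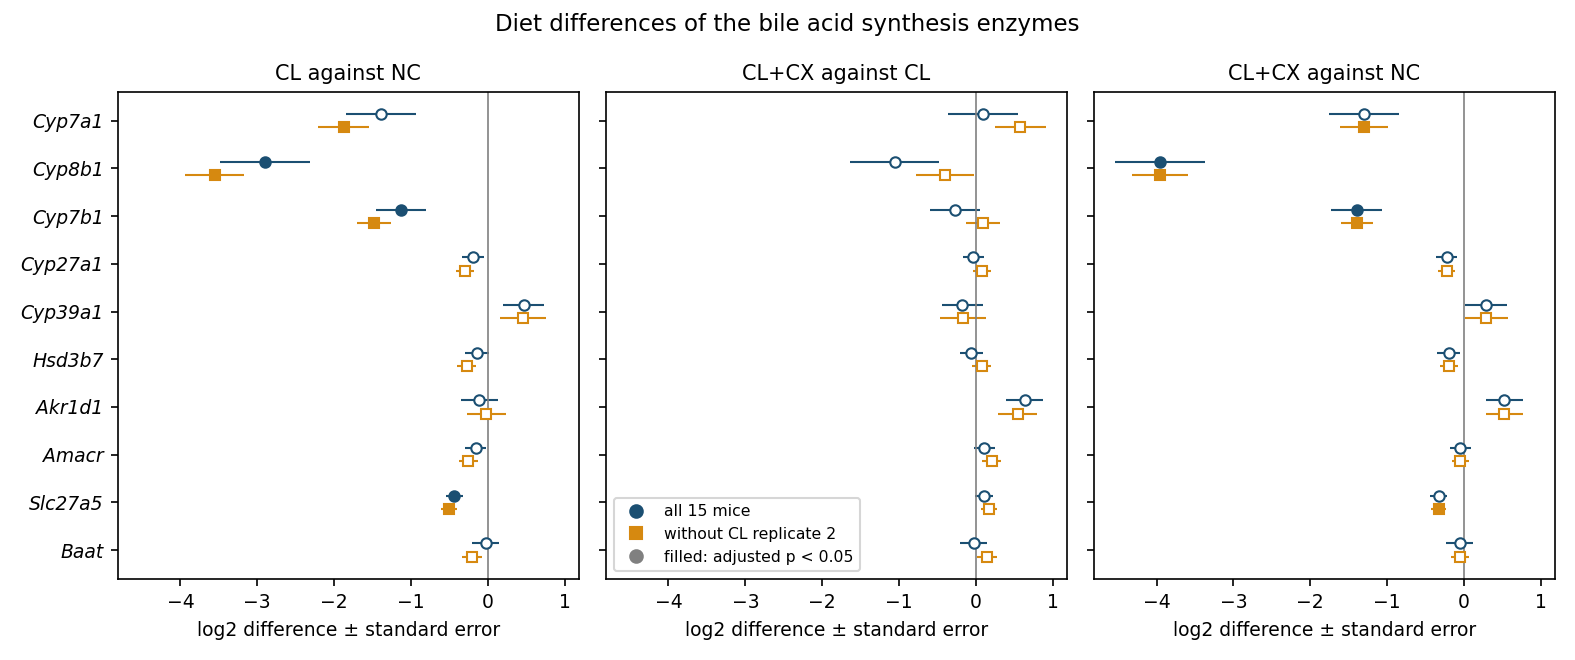
Log2 difference ± standard error from limma for the 10 enzymes in the 3 comparisons of diets, with all 15 mice (circles) and without CL replicate 2 (squares). Filled symbols have an adjusted p under 0.05; Cyp8b1 lies farthest from 0 in CL against NC, at -2.90 and -3.55, and no symbol is filled in CL+CX against CL.

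For what β-cryptoxanthin altered on the same diet, asked by CL+CX against CL, none of the 10 enzymes passed the test, where 3.26% of all genes were called in either direction. At an unadjusted p under 0.05, limma gave 1 of the 10, Akr1d1, and the methods' test, at its adjusted threshold, gave 0. The share of all genes under that unadjusted threshold was not counted, here or for the gene lists below. No enzyme was called without CL replicate 2 either, where 2.7% of all genes were. The mean of Akr1d1 in CL+CX mice exceeded that in CL mice by 0.63 (95% interval 0.12 to 1.14, limma adjusted p = 0.156), and its second probe set by 0.32 (limma adjusted p = 0.404), with groups that overlapped in both. For Cyp8b1 the difference was -1.06 (95% interval -2.30 to 0.18, limma adjusted p = 0.338), and -0.40 without CL replicate 2, whose signal was 3382 where the CL+CX mice lay between 168 and 447. The 2 lowest Cyp8b1 signals of all 15 mice, 169 and 168, were in CL+CX mice. For Cyp7a1 the difference was 0.09 (95% interval -0.88 to 1.07), and 0.58 without that mouse (limma adjusted p = 0.341). For Cyp7b1 it was -0.27 (95% interval -0.97 to 0.43), and 0.09 without it. The intervals of Cyp7a1 and Cyp8b1 reach more than 1 log2 unit in at least 1 direction. The intervals were narrower for Slc27a5 (-0.14 to 0.35), Amacr (-0.18 to 0.40), Cyp27a1 (-0.33 to 0.26), Hsd3b7 (-0.39 to 0.27) and Baat (-0.40 to 0.35), and that of Cyp39a1 ran from -0.75 to 0.40.

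In CL+CX against NC, Cyp8b1 and Cyp7b1 fell, and Cyp7a1 and Slc27a5 were lower in all 5 CL+CX mice than in any NC mouse without passing the test. Thus 2 of the 10 genes were lower and none higher, where 4.85% of all genes tested were lower, and 4 of 10 had lower, non-overlapping groups, where 8.68% of all genes did. Cyp8b1 was 15.5-fold lower (log2 difference -3.96, SE 0.58, limma adjusted p = 0.00114) and Cyp7b1 2.63-fold lower (-1.40, SE 0.33, limma adjusted p = 0.0157). The difference of Cyp7a1 was -1.30 (limma adjusted p = 0.0837) and that of its dimmer probe set -1.47 (limma adjusted p = 0.0498), and that of Slc27a5 was -0.33 (limma adjusted p = 0.0801). Leaving CL replicate 2 out of the shared estimate of spread brought the count to 4 of 10, with adjusted p of 0.0145 for Cyp7a1 and 0.0368 for Slc27a5, where 7.97% of all genes were lower. With the β-actin covariate Cyp8b1 passed (-3.66, limma adjusted p = 0.0132) and Cyp7b1 did not (-1.22, limma adjusted p = 0.104). The difference of Slc27a5 was again smaller with other scalings, at -0.09 with the deposited and with the hepatocyte-centred signals. Akr1d1 was higher by 0.52 (limma adjusted p = 0.178) by its brighter probe set and differed by -0.10 by the other. The remaining 5 genes had differences between -0.22 (Cyp27a1) and 0.29 (Cyp39a1), with adjusted p of 0.321 or more.

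Differences between 2 enzymes in the same mouse do not depend on the factor by which its array was scaled. The log2 signal of Cyp8b1 minus that of Cyp7a1 was 2.45 ± 0.35 (SD, n = 5) in NC, 0.94 ± 0.70 (SD, n = 5) in CL and -0.21 ± 0.68 (SD, n = 5) in CL+CX mice, a quantity that shows unequal change of the pair and not their relative levels. The NC mice, at 2.06 to 2.88, lay above the range of -0.0034 to 1.64 of CL mice and above the range of -1.03 to 0.78 of CL+CX mice. Cyp8b1 thus fell by more than Cyp7a1, the difference of CL from NC being -1.50 (exact permutation test, two-sided, p = 0.00794, the smallest that 5 against 5 allow, and 0.0357 after Benjamini-Hochberg adjustment over 9 tests) and that of CL+CX from NC -2.66 (exact permutation p = 0.00794, adjusted 0.0357). CL replicate 2 was the highest of the CL mice here, at 1.64, just above CL replicate 4 at 1.61. Without CL replicate 2 the CL difference was -1.68 (exact permutation test, adjusted p = 0.0357). Both calls were lost when NC replicate 1, 2 or 5 was left out, with adjusted p of 0.0714 to 0.0857 from the exact test. The NC mice that remained still lay above all CL and CL+CX mice, and with 4 against 5 mice the exact p moves in coarse steps. Between CL+CX and CL mice the difference was -1.15 (exact permutation p = 0.0397, adjusted 0.0714) and -0.98 without CL replicate 2 (exact permutation test, adjusted p = 0.143). Cyp7b1 minus Cyp7a1 differed by 0.26 in CL against NC (exact permutation p = 0.5), by -0.36 in CL+CX against CL (exact permutation p = 0.357) and by -0.10 in CL+CX against NC (exact permutation p = 0.738). Slc27a5 minus Baat was lower by 0.41 in CL (exact permutation p = 0.0238, adjusted 0.0714) and by 0.28 in CL+CX mice (exact permutation p = 0.0317, adjusted 0.0714) than in NC mice, which missed the adjusted threshold, and differed by 0.13 between CL+CX and CL mice (exact permutation p = 0.349).

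**Figure D3:**
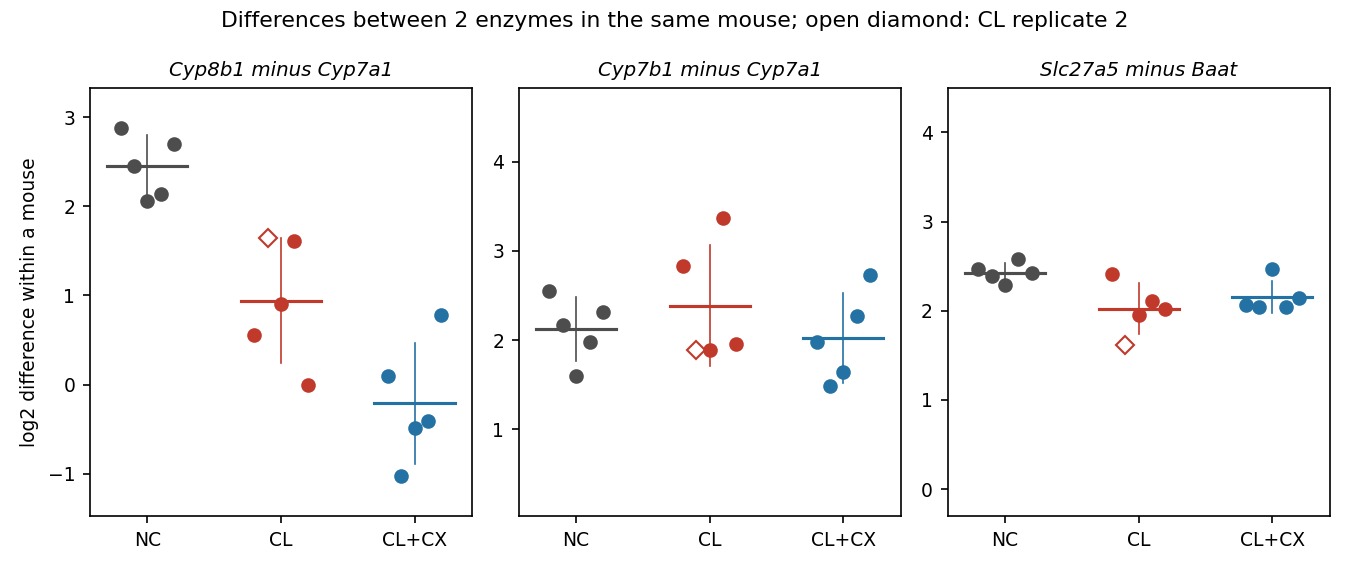
Difference in log2 signal between 2 enzymes of the same mouse, by diet, for the 3 pairs compared. Points are mice, bars the mean and lines ± 1 SD (n = 5), and the open diamond is CL replicate 2; in Cyp8b1 minus Cyp7a1 the NC mice (2.06 to 2.88) lie above all other mice.

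Over the 15 mice, the genes whose log2 signal was most like that of Cyp7a1 were Adtrp (Pearson r = 0.957), Ebp (r = 0.954), an isomerase of cholesterol synthesis, and Azgp1 (r = 0.950), and without CL replicate 2 these values were 0.951, 0.947 and 0.940. Those most like Cyp8b1 were Rpl4 (r = 0.955), a ribosomal protein, Psmg1 (r = 0.953), a proteasome assembly factor, and Cldn3 (r = 0.950), a tight junction protein, with 0.958, 0.952 and 0.948 without that mouse. They were picked as the highest of all genes tested, so the values are a description. Their own differences were far smaller than those of Cyp7a1 and Cyp8b1. These were, for CL minus NC, -0.54 for Adtrp, -0.47 for Ebp, -0.37 for Azgp1, -0.31 for Rpl4, -0.31 for Psmg1 and -0.40 for Cldn3, of which Cldn3 passed the test (limma adjusted p = 0.0457).

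The regulators of the pathway were described from a list of 19 genes, 18 of which were tested. Of these, 7 were lower and none higher in CL against NC, where 6.76% of all genes were lower and 7.2% higher. The 4 with the largest falls were Ppargc1a, a coactivator (-1.33, limma adjusted p = 0.000757), Klb, the co-receptor for Fgf15 (-0.64, 0.00306), Ppara, a fatty acid receptor (-0.61, 0.00263), and Hnf4a, an activator of hepatocyte genes (-0.56, 0.0224), and Cebpa, Fgfr4 and Rxra also passed. The median of the list was -0.41, against -0.08 for all genes. Klb had signals of 244 to 281 in NC and 149 to 190.3 in CL mice, with no overlap. CL replicate 2 did not stand out in Klb, at 185, nor in Fgfr4, at 68.7 where the other CL mice lay between 58.3 and 85.8, and its Ppargc1a, at 50.4, was the lowest of the 5. Without it, 7 regulators were lower and 1, Nr0b2, was higher, where 13.2% of all genes were lower. The counts depended on the scaling: with the deposited and with the hepatocyte-centred signals 1 was lower, Ppargc1a, and 1 higher, Nr0b2, and after quantile normalization 5 were lower and none higher. Under the β-actin covariate 4 were lower (Klb, Ppara, Ppargc1a and Cebpa) and none higher.

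Nr0b2 and Nr1h4, chosen here after their values were seen because they are the repressor and the bile acid receptor of the feedback, differed in pattern. Nr0b2 ranged from 152 to 415 in NC, 284 to 851 in CL and 314 to 504 in CL+CX mice. CL replicate 2 had the lowest Nr0b2 of the CL mice, 284 against 391 to 851 in the others. The difference CL minus NC was 0.88 (SE 0.30, limma adjusted p = 0.0708) and 1.08 without that mouse (limma adjusted p = 0.0197). Nr1h4 differed by -0.17 (limma adjusted p = 0.48), with ranges of 377 to 465 in NC and 291 to 477 in CL mice.

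Among the regulators, 5 were higher in CL+CX against CL and none lower, where 1.48% of all genes were higher. Foxa2, a liver transcription factor, rose by 0.92 (limma adjusted p = 0.0322), Cebpa by 0.83 (0.00266), Mafg, a repressor of bile acid genes, by 0.64 (0.0373) and Rxra, the partner of Nr1h4, by 0.54 (0.0258), and Ppara also passed. Without CL replicate 2, Foxa2, Rxra and Cebpa were called, which is 3 of 18. By scaling, 0 were higher with the deposited signals, 3 after quantile normalization (Foxa2, Rxra and Cebpa) and 1 with the hepatocyte-centred signals (Cebpa), and none was lower. With the β-actin ratio as a covariate, 0 of 18 were called in CL+CX against CL, where 1 probe set of all 20342 was, and Cebpa stood at 0.66 (limma adjusted p = 0.592). Set against NC, and with the common 75th percentile, Mafg was higher (0.67, limma adjusted p = 0.014) and Hnf4a (-0.49), Klb (-0.45) and Ppargc1a (-1.01) were lower, with adjusted p of 0.0459, 0.0261 and 0.0071. In each of the 3 other scalings Foxa2, Mafg and Cebpa were higher, and 0 to 2 regulators were lower. With the β-actin covariate only Klb was called against NC, as lower.

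**Figure D4:**
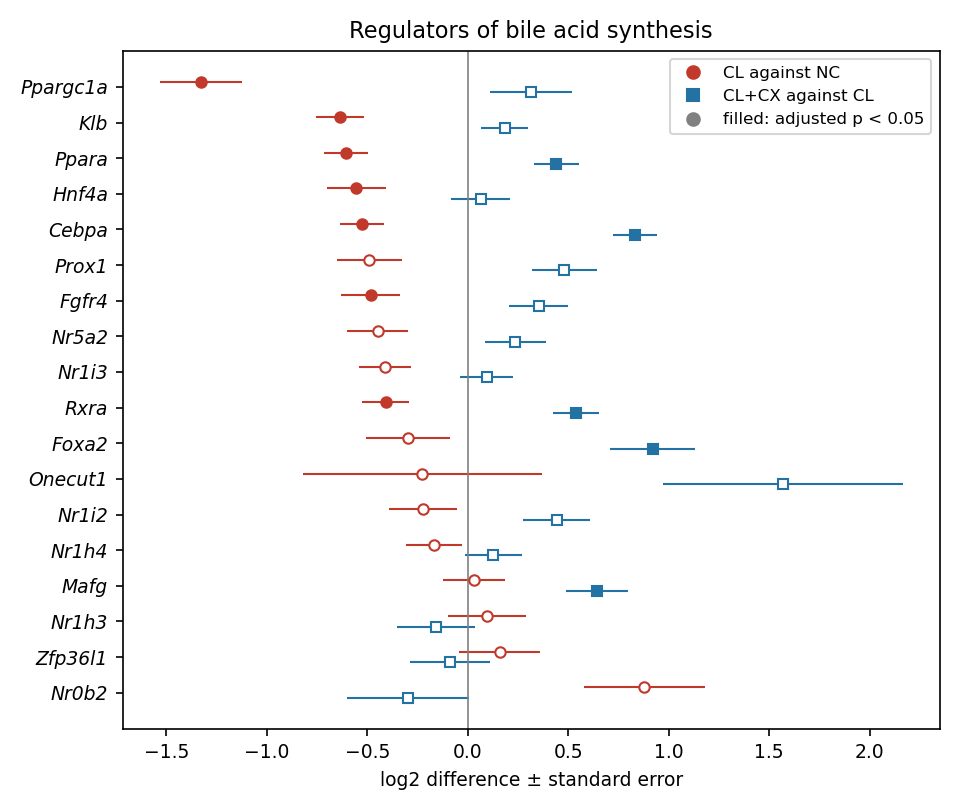
Log2 difference ± standard error from limma for 18 regulators of bile acid synthesis in CL against NC (circles) and in CL+CX against CL (squares). Filled symbols have an adjusted p under 0.05; in CL against NC 7 are filled, all below 0, and in CL+CX against CL 5 are filled, all above 0.

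Of 13 enzymes and carriers that serve the side chain or the hydroxylases, 9 were tested. In CL against NC, Cyp2c70, which makes muricholic acids in mice, rose by 0.78 (limma adjusted p = 0.0077), and Abcd3, a carrier into peroxisomes, fell by 0.50 (limma adjusted p = 0.00911). Of all genes, 7.2% were higher and 6.76% lower there. The signals of Cyp2c70 were 1032 to 1955 in NC and 2005 to 3260.4 in CL mice. Cyp2c70 was called higher in all 3 other scalings and Abcd3 was called in none of them. Leaving CL replicate 2 out, 1 was higher and 5 were lower (Scp2, Acot8, Abcd3, Slc27a2 and Fdx1), where 13.2% of all genes were lower. With β-cryptoxanthin, in CL+CX against CL, 0 of 9 passed limma's test and 1 had an unadjusted p under 0.05, and the 2 with the largest differences were Cyp46a1 (-0.40, SE 0.30, unadjusted p = 0.208 from limma) and Fdx1 (0.27, SE 0.18, unadjusted p = 0.144 from limma). Cyp2c70 was also higher in CL+CX than in NC mice, by 0.58 (limma adjusted p = 0.0418) and Abcd3 differed by -0.42 (limma adjusted p = 0.0288). With the β-actin covariate Cyp2c70 was the 1 gene of the list called in CL against NC, and 0 were called in CL+CX against NC.

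Of 14 transporters of bile acids and sterols, 12 were tested. In CL against NC, Abcg5 and Abcg8, which form the exporter of sterols into bile, rose by 0.99 and 0.55 (limma adjusted p = 0.00117 and 0.037), and Abcc3, a basolateral exporter, fell by 0.50 (limma adjusted p = 0.0257). Among all genes, 7.2% were higher and 6.76% lower in this comparison. Abcg5 and Abcg8 were called higher in all 3 other scalings, where Abcc3 was not called. Adding β-cryptoxanthin came with a further rise of Abcg8, by 0.77 (limma adjusted p = 0.0227), with signals of 348 to 464 above 176 to 318, a call that was made neither with the deposited signals nor with the β-actin covariate (1.02, limma adjusted p = 0.558). Against NC, 4 were higher in CL+CX mice (5.11% of all genes were), Abcg5 (1.55), Abcg8 (1.32), Atp8b1 (0.82), a lipid flippase of the canalicular membrane, and Abcb11 (0.62, limma adjusted p = 0.0453), the export pump of bile acids. Abcb11 differed by 0.56 in CL against NC (limma adjusted p = 0.0576) and by 0.69 without CL replicate 2 (limma adjusted p = 0.0134), and was called higher in CL against NC in the 3 other scalings. Its call in CL+CX against NC was lost after quantile normalization and with the β-actin covariate (0.55, limma adjusted p = 0.189), and under that covariate Atp8b1, Abcg5 and Abcg8 were called against NC and Abcg5 alone in CL against NC. CL replicate 2 had 697 where the other CL mice had 846 to 1463.

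Bile acid synthesis follows the time of day, Cyp7a1 being a known target of clock factors, and clock genes moved with the CL+CX group. Of 17 clock genes, 15 were tested. In CL+CX against CL 8 were higher and 4 lower, where 1.48% of all genes were higher and 1.78% lower. The counts were 6 and 4 without CL replicate 2. They were 7 and 4 after quantile normalization and 4 and 4 with the deposited or the hepatocyte-centred signals. With the β-actin covariate 1 of the 12 calls was left, that of Dbp (3.91, limma adjusted p = 0.00369). The 4 with the largest differences were Dbp (4.12, limma adjusted p = 1.32e-06), Nr1d1 (2.62, 0.0487), Per3 (2.57, 0.0078) and Ciart (1.90, 0.0491). Dbp, a driver of Cyp7a1, had signals of 36.5 to 76.1 in NC, 21.1 to 76.4 in CL and 575 to 728 in CL+CX mice. Arntl (Bmal1) ran the other way, with 106 to 139, 61.9 to 116 and 16.4 to 42.4; it was chosen after its values were seen. Against NC the counts of clock genes in CL+CX mice were 8 up and 3 down, led by Dbp (3.62), Nr1d1 (2.58), Ciart (2.19) and Arntl (-1.97), or 3 and 3 with the β-actin covariate. In the fit without the covariate 5.11% of all genes were higher and 4.85% lower. The CL diet alone showed fewer calls, as Npas2 rose by 1.65 and Tef and Hlf fell by 0.75 and 0.86 (limma adjusted p = 0.0015, 0.00105 and 0.00545). In CL against NC 7.2% of all genes were higher and 6.76% lower. Npas2 was called in all 3 other scalings, and Tef and Hlf only after quantile normalization, and all 3 were called with the β-actin covariate. The labels give no time of killing, so time of day and β-cryptoxanthin cannot be told apart in the comparisons of CL+CX mice. The part of the clock genes in the enzymes' differences was not tested.

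Markers of cell types moved with the diets too. Of 12 hepatocyte markers, 0 passed limma's test in CL against NC, and the median was -0.29, against -0.08 for all genes. At an unadjusted p under 0.05 limma gave 8, a count that cannot be judged without the share of all genes at that threshold. The 2 with the largest differences were Cps1 (-0.40, unadjusted p = 0.00931 from limma) and Itih3 (-0.40, unadjusted p = 0.0126 from limma). Once CL replicate 2 was left out, 9 of the 12 were lower, with a median of -0.405, where 13.2% of all genes were lower. In that setting Cyp8b1 differed by -3.55, Cyp7a1 by -1.88, Cyp7b1 by -1.49 and Slc27a5 by -0.51. With all mice these were -2.90, -1.39, -1.13 and -0.43. The part of hepatocyte content in the enzymes' differences was not tested. The mean hepatocyte marker difference from NC was -0.51 to 0.10 over the CL mice and -0.40 to -0.14 over the CL+CX mice. Of the pericentral zone markers Glul was higher (1 of 9 tested, 0.36, limma adjusted p = 0.0328), where 7.2% of all genes were higher. Of the periportal zone markers Pck1 was lower (1 of 6 tested, -0.51, limma adjusted p = 0.00749), where 6.76% of all genes were lower. The medians of these lists were -0.13 and -0.29, against -0.08 for all genes, so Glul went against the median of its list. Cyp7a1 is an enzyme of the pericentral zone, but 1 call in each list does not show a shift of zones. Glul was called in the 3 other scalings, and Pck1 only after quantile normalization. Under the β-actin covariate Pck1 was called and Glul was not.

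Macrophage markers were higher in CL than in NC mice in 12 of 12 genes (7.2% of all genes were higher), led by Lyz2 (3.05), Ctss (2.28), Tyrobp (2.25) and Marco (2.24), and 8 of 12 were lower when CL+CX was set against CL, led by C1qb (-1.47), Lyz2 (-1.43), Cd68 (-1.42) and Cd14 (-1.33), where 1.78% of all genes were lower. Without CL replicate 2 these counts were 11 and 6. They were 12 and 7 after quantile normalization and 12 and 1 with the deposited or the hepatocyte-centred signals. With the β-actin covariate they were 10 and 0, all 12 differences of CL+CX from CL being below 0 with a median of -0.70. The summed scaled signal of these markers was 1161 to 2682 in NC, 7481 to 8879 in CL and 2478 to 5680 in CL+CX mice. CL replicate 2 had a mean macrophage difference from NC of 1.90, within the 1.63 to 2.25 of the other CL mice, while its mean over the bile acid enzymes was 0.20 where theirs was -1.05 to -0.41. Its stellate cell markers, at -0.04, were under the 0.22 to 1.13 of the others. Of 6 stellate and 6 sinusoidal endothelial markers tested, 0 passed limma's test in CL against NC and 1 and 0 had an unadjusted p under 0.05, the largest differences being those of Des (1.32, unadjusted p = 0.00893 from limma) and Col3a1 (0.99, 0.0928) for the first and Clec4g (0.35, 0.0892) and Cdh5 (0.34, 0.148) for the second list. Without CL replicate 2, the lowest of the CL mice in the stellate markers, 3 of these were higher (Col3a1, Des and Col1a2) and 0 endothelial ones. The larger stellate values thus follow in part from leaving that mouse out. The share of all genes called higher in CL against NC in that setting is not given for any list, so the count of 3 has no background beside it. Of the endothelial markers, Clec4g was lower in CL+CX against CL (-0.83, limma adjusted p = 0.0349) and Lyve1 in CL+CX against NC (-1.40, limma adjusted p = 0.0106). The mean endothelial marker difference from NC was 0.0891 ± 0.17 (SD, n = 5) in CL and -0.59 ± 0.51 (SD, n = 5) in CL+CX mice. Bile duct and T cell markers were mostly under the filter, with 1 of 7 (Sox9) and 1 of 6 (Cd3g) tested. Sox9 was lower in CL+CX against CL, with no overlap (-1.13, limma adjusted p = 0.0141, and -1.26 without CL replicate 2, limma adjusted p = 0.00961). Without that mouse Sox9 was also higher in CL against NC (0.62, limma adjusted p = 0.0382) and lower in CL+CX against NC (-0.64, limma adjusted p = 0.0317). Cd3g was higher in CL against NC (1.01, limma adjusted p = 0.0453), a call lost without that mouse (1.02, limma adjusted p = 0.0534). None of these endothelial, bile duct and T cell calls was made with the β-actin covariate. The part of other cells in the enzymes' differences was not tested.

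**Figure D5:**
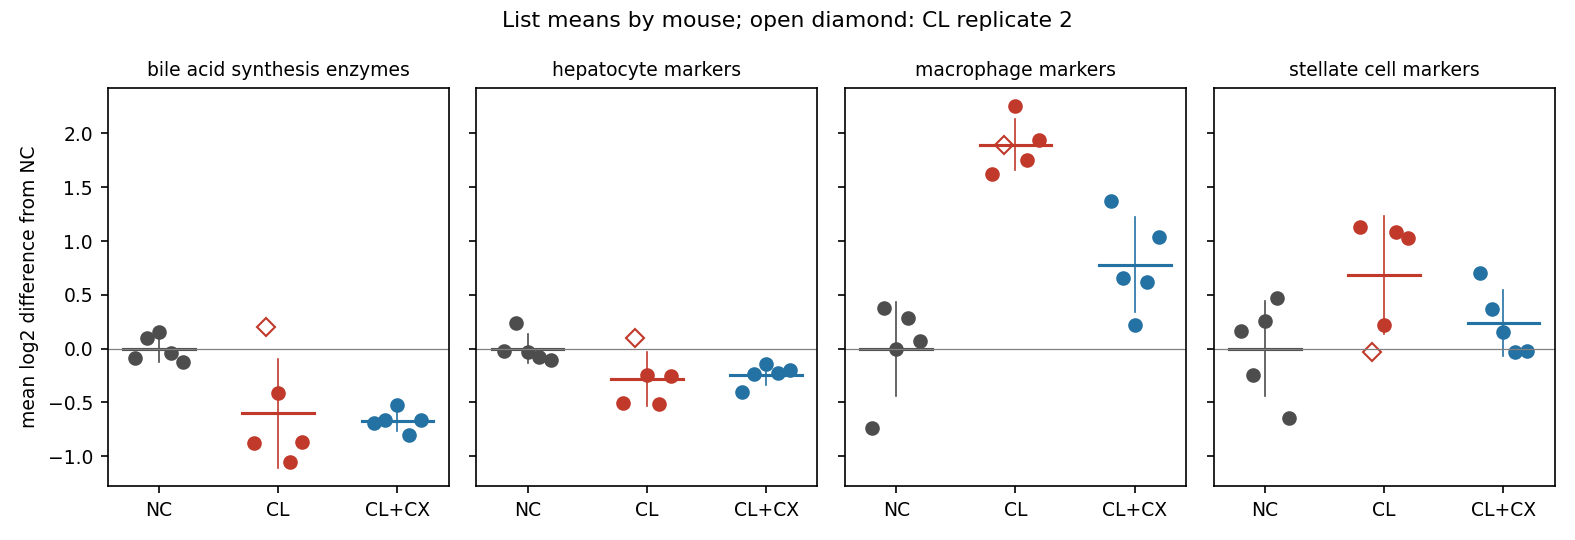
Mean log2 difference from the NC mean over the genes of 4 lists, in each of the 15 mice. Points are mice, bars the mean and lines ± 1 SD (n = 5); CL replicate 2 (open diamond) lies at 0.20 in bile acid synthesis enzymes, above the other CL mice (-1.05 to -0.41), and at 1.90 in macrophage markers, among them.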

How the data were processed

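Liver RNA of 15 mice was hybridised to 1 array each. The intensity values were deposited as signals by the authors, made with the MAS5 algorithm and not scaled to a common level, and the files name no genome build. The platform annotation gave 1 gene symbol to 34945 probe sets, several to 932 and none to 9160.

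Signals were multiplied so that the 75th percentile of every array became 54.05, floored at 1 (11.3% of values) and turned to log2. Control probe sets (64) were removed. A probe set was kept if, in any 1 diet, no array had it below the array median, which left 20342. These were tested with limma 3.58.1 in R 4.3.3, as 3 group means in 1 fit with Benjamini-Hochberg adjustment and a threshold of 0.05. A gene was read from its brightest probe set. Lists name every called gene up to 4, otherwise the 4 with the largest differences, or 2 where none was called. Members and lists were chosen with earlier results of these data known. Alternatives were the filter, the scaling, the floor, the study's own test (the methods' test), moderated priors, 2 groups only, the replicate number as a block, the β-actin 3′ to 5′ ratio as a covariate, and each mouse left out. The scalings and the β-actin covariate for the gene lists were added after the data were seen. Tested on simulated data (CL against NC, 20342 probe sets), limma recovered 71% of 2-fold and 100% of 4-fold changes, and the methods' test 41% and 91%. The simulation gave each probe set the same spread in all diets. Enzymes with unequal spread, such as Cyp8b1 (SD 0.19 in NC and 1.68 in CL mice), are outside that setting, so these shares do not apply to them. The number of arrays limits the precision. Promoters came from RefSeq, and plots were made in Python 3.11.15 (matplotlib 3.10.9).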

Additional observations from a re-analysis of the deposited data

Results flagged for a closer look

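The log2 signal of Slc27a5 minus that of Baat in CL+CX mice had 1 mouse away from the others. CL+CX replicate 3 stood at 2.46 and the other 4 mice at 2.04 to 2.14, a gap of 0.751 of the group's range. It was 1 of 51 groups of 5 looked at for such gaps, and chance marks about 1 group in 20. Without this mouse the difference between CL+CX and NC mice was -0.36 (exact permutation test, adjusted p = 0.0238). With it the difference was -0.28 and missed the threshold (exact permutation test, adjusted p = 0.0714). The mouse was picked from these same values, so the smaller p-value without it gives no separate support.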

How the results depend on the processing

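Cyp8b1 was called lower in CL and in CL+CX than in NC mice under all 27 alternatives run, and no enzyme was called in CL+CX against CL under any of them. Cyp7a1 passed in CL against NC under 4 of the 27, and Cyp7b1 and Slc27a5 lost their calls under 15 and 7. In CL against NC, 3 enzymes were called, and 1 was with no filter, with the deposited or hepatocyte-centred signals, with 2 groups only or with the β-actin covariate. In CL+CX against NC, 2 were called, 4 with the stricter filter, the methods' test or 2 groups only, and 1 with no filter or the β-actin covariate. Leaving out each mouse gave 1 to 4, 0 to 0 and 2 to 4 enzymes in the comparisons of CL with NC, CL+CX with CL and CL+CX with NC, with 1 without NC replicate 2 and 4 without CL replicate 2. Over all probe sets, 2491 were called in CL against NC (1127 with no filter, 1379 by the methods' test, 1139 with the β-actin covariate, 1730 to 3912 leaving out each mouse). In CL+CX against CL, 637 were called (38 with no filter, 81 with the deposited and 85 with the hepatocyte-centred signals, 995 with an offset of 16, 142 with 2 groups only, 1 with the β-actin covariate, 105 to 967 leaving out each mouse, with the lowest without CL+CX replicate 3 and the highest without CL replicate 5). In CL+CX against NC, 1991 were called (605 with no filter, 3202 with 2 groups only, 663 with the β-actin covariate, 1197 without NC replicate 1 to 3048 without CL replicate 2).

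The replicate numbers do not pair the mice, deviations of same-numbered mice having r of -0.132 to 0.135. With a replicate block, 2146, 366 and 1671 probe sets and 3, 0 and 2 enzymes were called, Cyp7a1 passing in CL against NC (limma adjusted p = 0.0354) and Cyp7b1 not (0.055). Cyp8b1 minus Cyp7a1 within mice, at -1.50 in CL and -2.66 in CL+CX against NC, had an exact adjusted p of 0.188 in both under the block, where 5 pairs allow no p below 0.0625, so that no call could be made. Leaving out each mouse, Cyp8b1 minus Cyp7a1 ran from -1.68 to -1.27 (CL) and -2.91 to -2.45 (CL+CX), Slc27a5 minus Baat from -0.50 to -0.30 and -0.36 to -0.24, and Cyp7b1 minus Cyp7a1 in CL+CX against NC from -0.28 to 0.0354, being 0.0107 after quantile normalization.

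Signs turned for enzymes that were not called. In CL against NC, Cyp27a1, Hsd3b7, Akr1d1, Amacr and Baat stood at 0.12, 0.17, 0.21, 0.16 and 0.29 with the deposited and at 0.0912, 0.14, 0.17, 0.13 and 0.25 with the hepatocyte-centred signals, Hsd3b7 and Baat at 0.0664 and 0.0544 after quantile normalization and Baat at 0.0239 with the β-actin covariate. In CL+CX against CL, Cyp7b1 was 0.0611 with the β-actin covariate, and Cyp7a1 -0.0108 and Baat 0.0036 with the mean of all probe sets. In CL+CX against NC, Cyp27a1, Hsd3b7, Amacr and Baat were 0.0202, 0.0449, 0.20 and 0.19 with the deposited and 0.0158, 0.0404, 0.19 and 0.19 with the hepatocyte-centred signals, Amacr and Baat 0.0769 and 0.0204 after quantile normalization, and Cyp39a1 -0.0577 with the β-actin covariate. Leaving out each mouse, Akr1d1 ran from -0.25 to 0.0814 and Baat from -0.20 to 0.0831 in CL against NC. For CL+CX minus CL, leaving out each mouse, Cyp7a1 ran from -0.21 to 0.58, Cyp7b1 from -0.49 to 0.0902, Cyp27a1 from -0.11 to 0.0784, Hsd3b7 from -0.15 to 0.0765 and Baat from -0.14 to 0.15. The causes were not tested.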
